A study of Mus musculus with 16 samples.

Results

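Chemokines and their receptors were followed in the ventricles of BACHD and wild-type (WT) mice at young and old age. The set held every probe of the Illumina MouseRef-8 v2.0 array whose annotated symbol began with Ccl, Cxcl, Ccr or Cxcr and a number, or was Cx3cl1. This gave 68 probes of 53 genes, out of 25697 probes and 16593 named genes on the array. Ligands accounted for 48 probes of 37 genes and receptors for 20 probes of 16 genes.

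BACHD mice express full-length mutant human huntingtin from a bacterial artificial chromosome and are used as a model of Huntington's disease, and the WT mice were their littermate controls on the C57BL6/J background. The 4 groups were WT young, BACHD young, WT aged and BACHD aged, with ages of 3 mo (young) and 15 mo (aged, labelled old) per the methods, and each group held 4 arrays of 1 mouse each. The labels give the tissue as heart and the methods give the ventricles, so each value is an average over all cells of the sample, in which fewer cells of a type and less RNA per cell cannot be told apart. The transgene is human, and the genotype labels were not checked against it here.

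Chemokines are small secreted proteins that guide migrating cells, mostly leukocytes, through G protein-coupled receptors. The CC, CXC and CX3C families are named for the spacing of conserved cysteines. Inflammatory chemokines are induced in injured or infected tissue and draw in monocytes, neutrophils and T cells, whereas homeostatic chemokines are made steadily by stromal, endothelial and lymphoid tissue and position lymphocytes and dendritic cells. In the heart, chemokines are best known for recruiting monocytes and neutrophils after infarction and for the signalling of Cxcl12 to Cxcr4.

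Of 7 cardiomyocyte markers, 6 had a probe and all of these were detected, with summed levels between 105177 and 113713 on the 16 arrays. The median bead signal per array ranged from 133 to 157, and 9780 to 10755 probes per array were detected, meaning a detection p below 0.01 against the negative controls of the array. Pairs of arrays correlated at 0.984 to 0.994 over all probes. By mean normalized log2 level, markers of atrial muscle stood higher on 4 aged arrays, WT aged 2 and 4 and BACHD aged 3 and 4. The mean there was 7.91 to 8.89, beside 6.76 to 7.13 on the other 12, and "raised" below refers to this mean. The summed level did not set these 4 apart. It was 5658 and 11287 on WT aged 2 and 4 and 8406 and 14285 on BACHD aged 3 and 4. The highest sum was on BACHD aged 2 (24424), which is not among the 4. Where leaving out these 4 arrays changed a call or moved a called difference by over 1.5 times, the value is given beside it, and that choice was made after seeing the data. Platelet markers stood apart on BACHD aged 4, with a summed level of 3436 beside 389 to 713 on the other arrays.

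Ligand transcripts were measurable in the ventricle and receptor transcripts mostly were not. Of the 68 probes, 29 (42.6%, beside 42.7% of all probes) were detected on 4 arrays or more, 18 of them on all 16 arrays, and the other 39 on no array. Among ligand probes, 28 of 48 were detected. Among receptor probes, 1 of 20 was, that of Cxcr4, the receptor of Cxcl12. None of the 11 CC receptor probes was detected on any array, including those for Ccr1 and Ccr2, which carry monocytes and macrophages towards Ccl3, Ccl5 and Ccl2. A probe that was not detected gives no level, and its transcript may still have been present below the background.

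**Figure D1:**
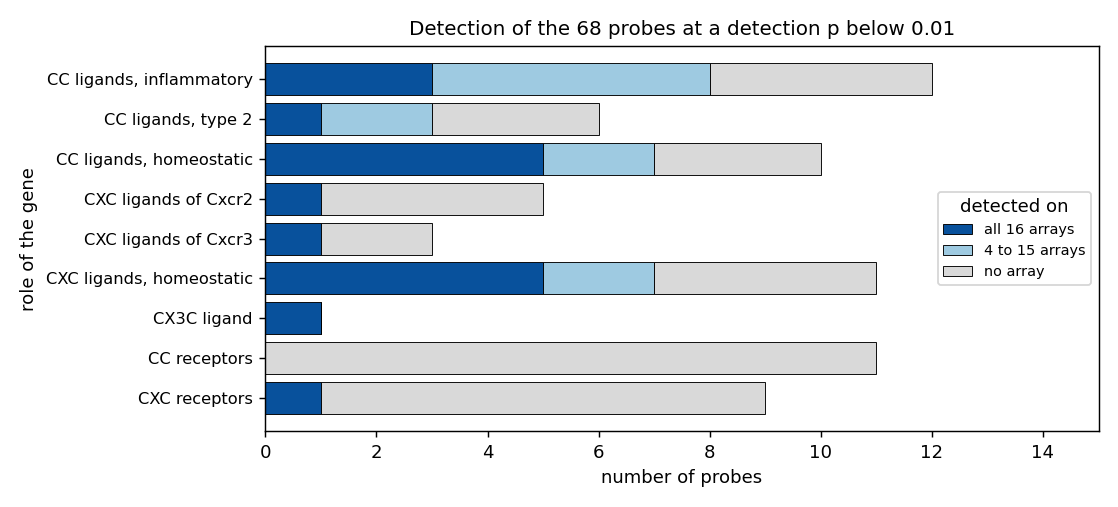
Number of probes (x axis) by the role of the gene (y axis), shaded by whether the probe was detected on all 16 arrays, on 4 to 15 or on none, at a detection p below 0.01. Homeostatic and inflammatory CC ligands and homeostatic CXC ligands hold most of the 29 detected probes, while 19 of the 20 receptor probes were detected on no array.

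By array, 21 to 26 of the 68 probes were detected in WT young hearts and 22 to 24 in BACHD young hearts. The numbers were 26 to 29 in WT aged and 23 to 28 in BACHD aged hearts.

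The comparison of ages asked which of these genes changed between 3 and 15 mo in each genotype, and it held most of the differences in the set. A probe was called when limma gave a P below 0.005, the threshold of the methods, and Benjamini-Hochberg adjusted p-values over all 25697 probes are given beside it. In WT hearts, 10 of the 68 probes (14.7%) were called, beside 2.77% of all probes. All 10 were higher with age, where 1.67% of all probes were, and they belonged to Ccl8, Ccl11, Ccl19, Cxcl12, Cxcl13, Cxcl14 and Cx3cl1. In BACHD hearts, 8 of the 68 (11.8%) were called, beside 5.15% of all probes. There 5 were higher (2.69% of all probes), for Ccl8, Ccl11, Cxcl13 and Cxcl14, and 3 were lower (2.47% of all probes), for Cxcl9, Ccl9 and a probe of Ccl4 that was detected on no array. At an adjusted p below 0.05 the counts were 8 in WT (0.712% of all probes) and 5 in BACHD hearts (3% of all probes). The WT counts of 10 and 8 include a probe of Cxcl12 that was detected on no array. In WT hearts 14 probes had every aged array above every young one (3.79% of all probes) and 1 had every aged array below (3.03%), and in BACHD hearts the numbers were 6 (4.51%) and 3 (4.38%). Over all 68 probes the median log2 difference was 0.02 in WT and -0.02 in BACHD hearts, beside 0.00 for all probes in each. That median includes the 39 probes detected on no array, in which a change could not be measured. The 29 detected probes had a median of 0.30 in WT and -0.06 in BACHD hearts, beside 0.00 for all detected probes in each, but a probe could enter by detection in 1 group alone, so these medians are a description only.

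**Figure D2:**
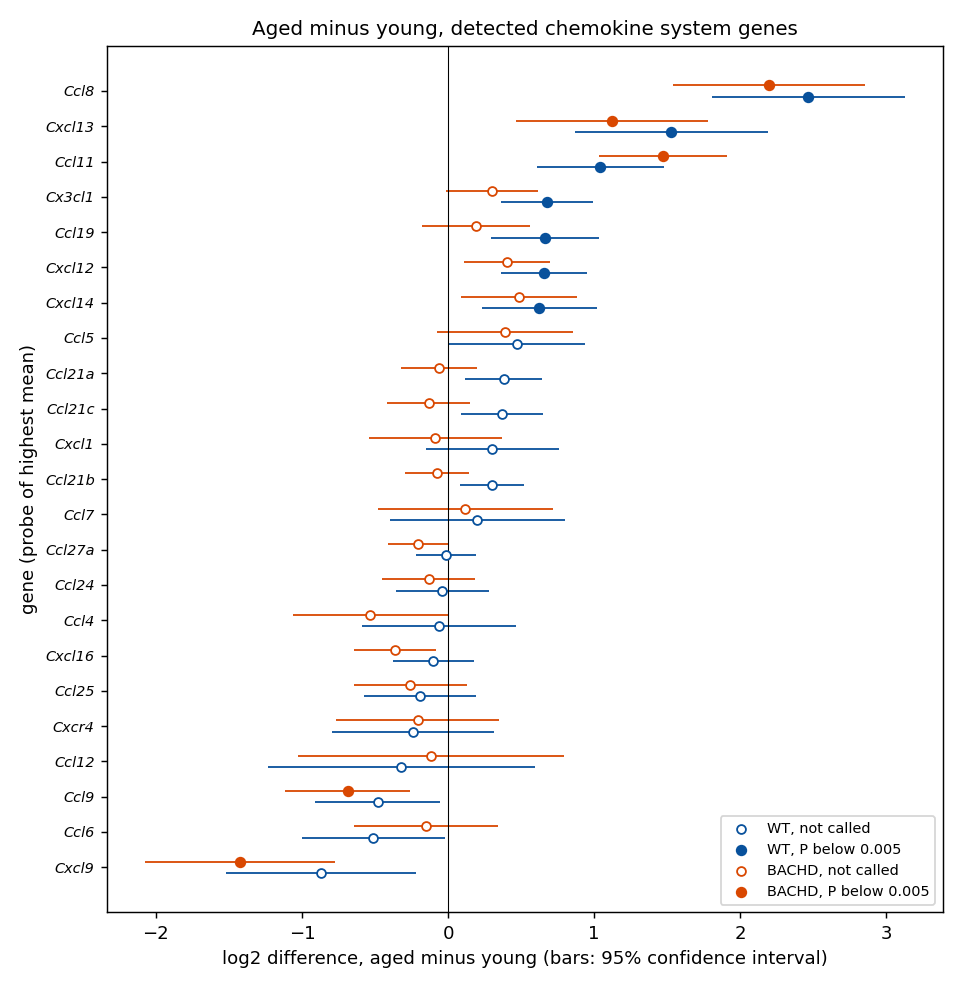
Log2 difference between aged and young hearts (x axis; bars are 95% confidence intervals) for each gene with a probe detected on at least 4 arrays (y axis), in WT and BACHD mice. Filled points passed P below 0.005. Ccl8 lies farthest to the right in both genotypes, at 2.47 and 2.20, and Cxcl9 farthest to the left in both, at -0.87 and -1.42.

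Ccl8, an inflammatory CC ligand, had the largest age difference of the set in both genotypes. Its normalized log2 level was 4.66, 5.40, 4.63 and 5.29 in the WT young hearts and 6.63, 7.87, 7.34 and 7.99 in the WT aged hearts. In BACHD hearts it was 4.96, 5.73, 5.32 and 5.34 at the young age and 7.07, 7.76, 7.11 and 8.18 at the old age. Every aged array lay above every young one, and the probe was detected on all 8 aged arrays and on no young array. The young means are therefore only bounds, and aged WT hearts held at least 3.51-fold more Ccl8 signal than young ones and aged BACHD hearts at least 3.49-fold more. The log2 difference was 2.47 ± 0.31 (SE) in WT (adjusted p = 0.00100, limma) and 2.20 ± 0.31 in BACHD hearts (adjusted p = 0.00168). Both calls held without any of the arrays in turn. The size depended on the background correction, and with none the differences were 1.04 and 0.97, still called but below the bounds given above, which apply to corrected signals only. Between genotypes, Ccl8 differed by 0.07 in aged hearts (95% confidence interval -0.59 to 0.73), and by 0.43 (not called) without the 4 arrays with raised atrial markers.

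Ccl11 (eotaxin), which draws eosinophils through Ccr3, also rose in both genotypes. Its level was 6.58, 7.13, 7.02 and 6.76 in WT young and 7.50, 8.24, 7.44 and 8.47 in WT aged hearts. The BACHD young hearts read 6.34, 6.31, 6.71 and 6.77, and the BACHD aged hearts 8.03, 8.13, 7.89 and 7.97. The ages did not overlap in either genotype, and the 4 BACHD aged arrays lay close together where the WT aged arrays split into a lower and a higher pair. Aged hearts exceeded young ones by 1.04 ± 0.20 log2 units in WT (adjusted p = 0.0279, limma) and 1.47 ± 0.20 in BACHD hearts (adjusted p = 0.00168). The higher pair of WT aged arrays is the pair with raised atrial markers, and without the 4 such arrays the WT difference was 0.60 and the BACHD difference 1.55, both still called. With no background correction the differences were 0.63 and 0.84, both called. A dimmer probe of Ccl11, detected on all aged and no young arrays, rose by 0.91 and 0.93, at least 1.29-fold in WT and 1.21-fold in BACHD hearts.

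Ccl8 and Ccl11 lie in one run of CC ligand genes on chromosome 11, in the order Ccl2, Ccl7, Ccl11, Ccl12, Ccl8 and Ccl1, and their neighbours were not called. Ccl12, a Ccr2 ligand of mice, lies between them and was detected on all 16 arrays. Its level was 6.63, 7.98, 8.19 and 6.74 in WT young hearts and 6.58, 6.86, 7.11 and 7.72 in WT aged hearts. In BACHD hearts it was 6.77, 7.42, 6.89 and 6.69 at the young and 5.69, 7.62, 6.51 and 7.48 at the old age. The spread within a group was as wide as the range between groups, and the age difference was -0.32 ± 0.43 in WT and -0.12 ± 0.43 in BACHD hearts. Ccl7, named here as a neighbour after its values were seen, was detected on 12 arrays and differed by 0.20 ± 0.28 and 0.12 ± 0.28. Ccl2 and Ccl1 were detected on no array.

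**Figure D3:**
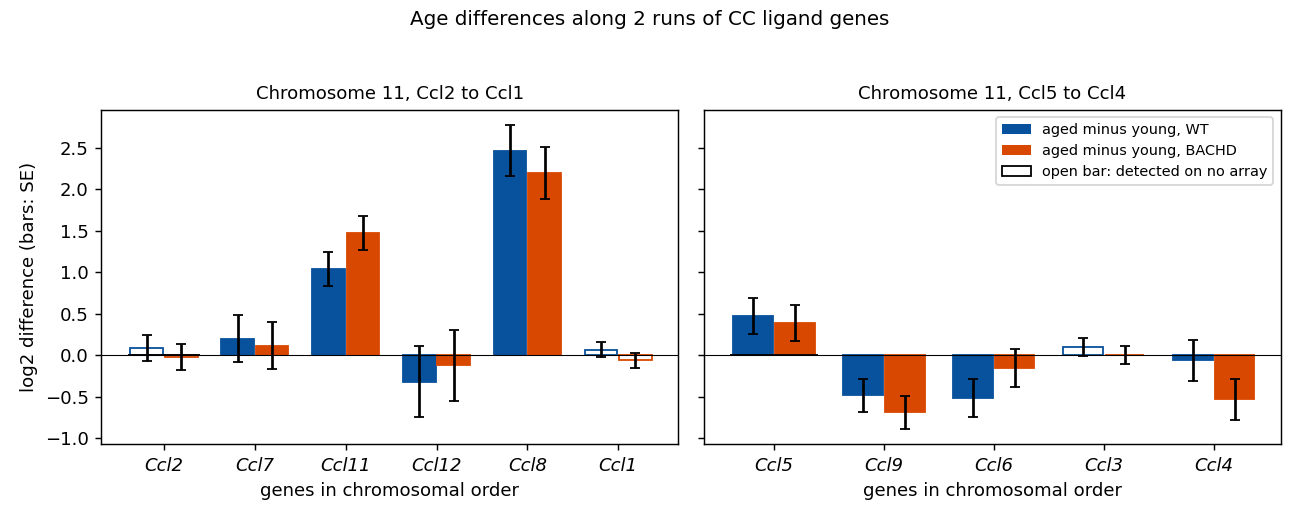
Log2 difference between aged and young hearts (y axis; error bars are SE) for the genes of 2 runs of CC ligands on chromosome 11, in chromosomal order (x axis), in WT and BACHD mice. Open bars are probes detected on no array. Ccl11 (1.04 and 1.47) and Ccl8 (2.47 and 2.20) stand above their neighbours, and Ccl9 lies below 0 in both genotypes.

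The promoters of Ccl8 and Ccl12 are shown because these neighbouring genes differed in their age response. They come from RefSeq on build GRCm38.p6, each from 250 bases before to 50 after the start of the gene, on the plus strand at chr11:82114935-82115234 for Ccl8 and chr11:82101595-82101894 for Ccl12. Capitals mark matches, on either strand, to the letters TATAAA (the element that binds the TATA-binding protein), TGANTCA (an AP-1 type site, where N is any base) or CCAAT (the element that binds nuclear factor Y). No motif contains another.
Ccl8: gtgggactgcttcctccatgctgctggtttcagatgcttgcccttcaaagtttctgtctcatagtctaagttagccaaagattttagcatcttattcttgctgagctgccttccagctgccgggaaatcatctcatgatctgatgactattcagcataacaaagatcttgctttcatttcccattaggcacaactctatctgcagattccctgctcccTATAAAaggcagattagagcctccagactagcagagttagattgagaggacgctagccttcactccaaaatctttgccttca
Ccl12: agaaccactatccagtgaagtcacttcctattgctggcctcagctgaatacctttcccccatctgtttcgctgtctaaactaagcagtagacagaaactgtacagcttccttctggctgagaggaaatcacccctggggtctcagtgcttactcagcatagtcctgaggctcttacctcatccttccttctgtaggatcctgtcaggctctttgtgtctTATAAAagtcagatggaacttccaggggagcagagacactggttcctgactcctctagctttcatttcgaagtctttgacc
Each promoter held TATAAA once, beginning 32 bases before the start in Ccl8 and 31 in Ccl12, and neither held the other motifs. TATAAA occurred in 13.6% of all 32851 promoters of this length, TGANTCA in 7.81% and CCAAT in 37.4%. Of the 53 genes, 38 had a promoter in the table, Ccl11 not among them. The promoters of 25 ligand genes held TATAAA in 9, TGANTCA in 5 and CCAAT in 6.

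Cxcl13, the ligand of Cxcr5 that places B cells in lymphoid follicles, was detected only on aged arrays. Its level was 4.39, 4.54, 4.65 and 4.46 in WT young hearts and 5.05, 6.32, 5.87 and 6.91 in WT aged hearts. In BACHD hearts it was 4.56, 4.51, 4.49 and 4.38 at the young and 5.26, 5.74, 5.10 and 6.34 at the old age. Every aged array lay above every young one, but detection was reached on 3 WT aged and 2 BACHD aged arrays and on no young array. With age it gained 1.53 ± 0.31 log2 units in WT (adjusted p = 0.0336, limma), at least 1.31-fold, and 1.12 ± 0.31 in BACHD hearts (called, adjusted p = 0.0631), where no bound above 1 could be given. Without the 4 arrays with raised atrial markers the WT difference was 0.94 and the BACHD difference 1.000, both called. With no background correction they were 0.54 and 0.39, both called, and with an offset of 50 the BACHD difference was 0.57 and not called. The BACHD call was lost without any of 5 of its 8 arrays in turn, namely BACHD young 2, 3 and 4 and BACHD aged 2 and 4.

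Ccl19, which guides T cells and dendritic cells through Ccr7, was called in WT hearts. The level was 5.004, 5.69, 5.69 and 5.95 in WT young and 6.19, 6.50, 6.15 and 6.14 in WT aged hearts, with no overlap. BACHD young hearts read 5.63, 5.66, 6.07 and 6.20, and BACHD aged hearts 6.14, 5.98, 6.18 and 6.02, within the range of the young hearts at the upper end. The difference was 0.66 ± 0.17 in WT (called, adjusted p = 0.106, limma) and 0.19 ± 0.17 in BACHD hearts (not called), and the genotype by age interaction was -0.47 ± 0.24 (not called, adjusted p = 0.827). The WT call was lost without WT aged 2 (0.57), without the 4 arrays with raised atrial markers (0.59) and when only the 8 WT arrays were fitted. It was 0.22, and called, with no background correction. Ccl19 and Cxcl13 act on lymphocytes, whose markers were near background: none of 8 measured T cell markers and 1 of 7 B cell and plasma cell markers were detected on 4 arrays or more. The summed T cell level was 217 to 233 in WT young, 208 to 229 in BACHD young, 226 to 333 in WT aged and 220 to 248 in BACHD aged hearts, and that of B cells 212 to 262, 205 to 277, 209 to 355 and 194 to 289. WT aged 2 gave the highest sum of both lists, and their part in the differences was not tested. Of the T cell list, Cd3g passed the threshold in WT hearts (0.83), being detected on 1 array.

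**Figure D4:**
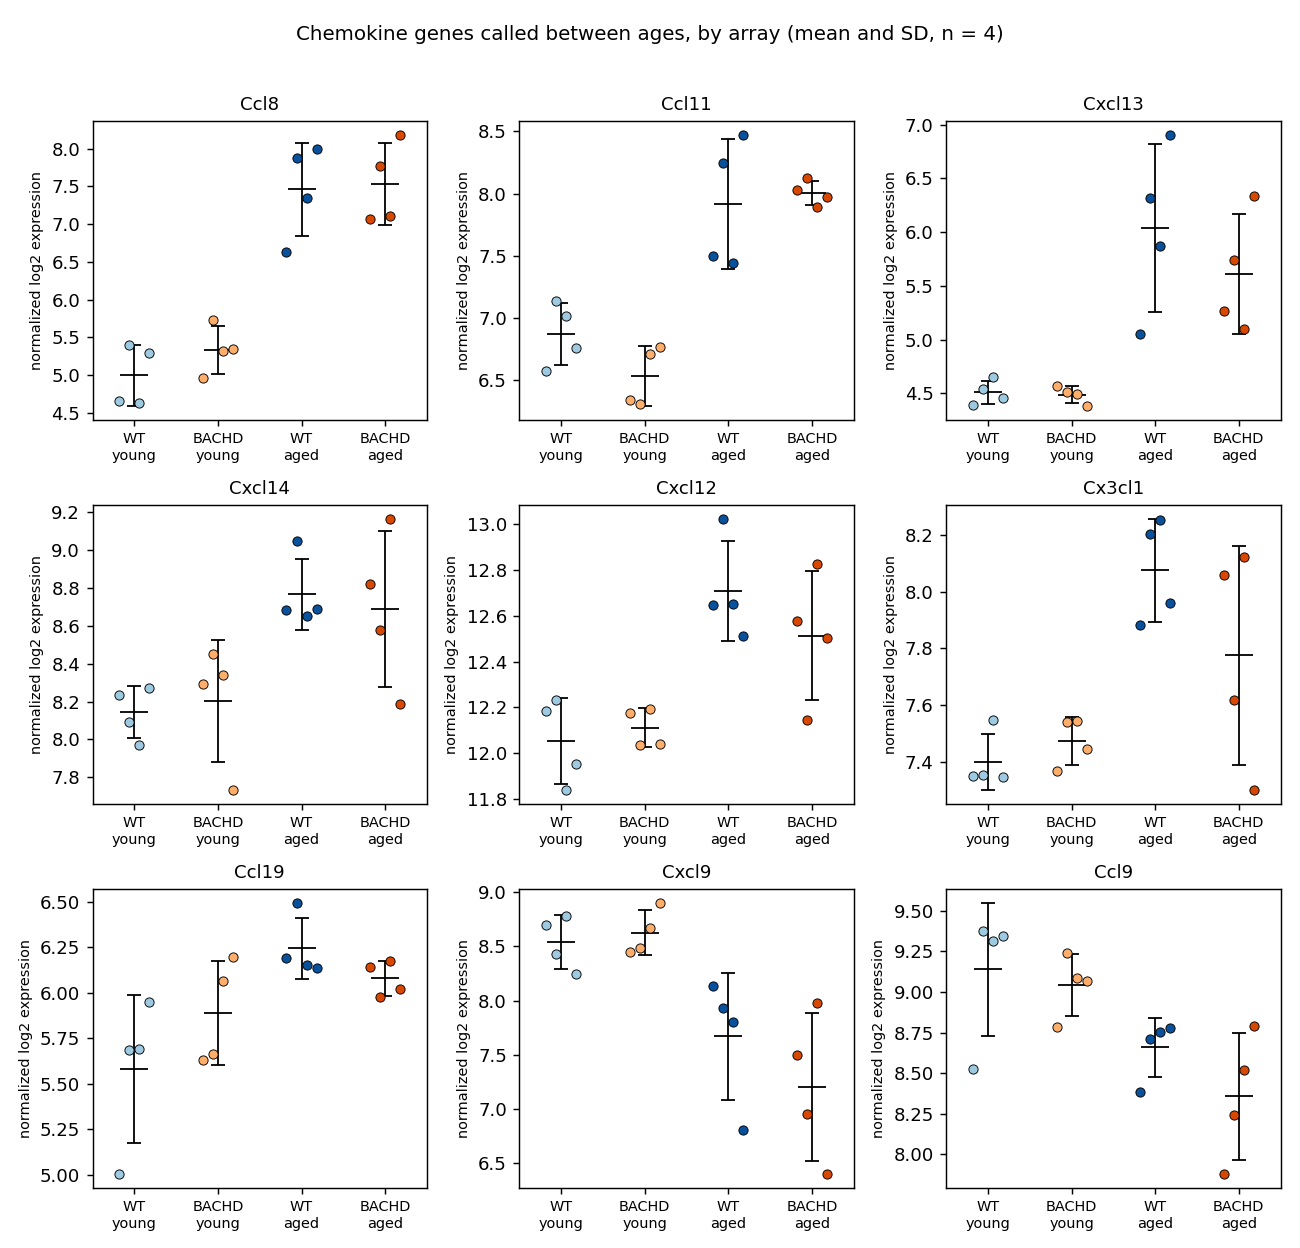
Normalized log2 expression (y axis) of the 9 genes with a called probe that was the brightest of the gene, by array in the 4 groups (x axis). Points are arrays, and the bar and whiskers are the mean and SD of 4. For Ccl8 every aged array lies at 6.63 or above and every young array at 5.73 or below, whereas for Cx3cl1 the BACHD aged arrays spread from 7.30 to 8.12.

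Cxcl12, Cxcl14 and Cx3cl1, which stromal and endothelial cells make without inflammation, rose by smaller amounts. Cxcl12, the ligand of Cxcr4 that retains progenitors and lymphocytes, read 12.18, 12.23, 11.84 and 11.95 in WT young and 12.65, 13.02, 12.65 and 12.51 in WT aged hearts. BACHD young hearts read 12.18, 12.03, 12.19 and 12.04, and BACHD aged hearts 12.58, 12.14, 12.83 and 12.51. The WT ages did not overlap, whereas in BACHD hearts array 2 of the aged group lay among the young ones. It rose by 0.66 ± 0.14 log2 units in WT (adjusted p = 0.0399, limma). In BACHD hearts the difference was 0.40 ± 0.14 (not called, adjusted p = 0.142), and without BACHD aged 2 it was 0.53 and called. Probes of Cxcl12 did not move alike. Of 2 dimmer probes detected on all arrays, one differed by 0.35 in WT and 0.39 in BACHD hearts and the other by -0.01 and 0.03, none called, and the WT call was lost when the probes of the gene were averaged (0.30). A probe detected on no array also passed the threshold in WT (0.48).

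Cxcl14, a chemokine of epithelial and stromal tissue, was read by a pair of detected probes. The brighter one gave 8.24, 8.09, 7.97 and 8.27 in WT young, 8.68, 9.05, 8.65 and 8.69 in WT aged, 8.29, 8.45, 8.34 and 7.73 in BACHD young and 8.82, 8.58, 9.17 and 8.19 in BACHD aged hearts. The WT ages were separate and the BACHD ages overlapped at BACHD aged 4. The gain was 0.62 ± 0.19 log2 units in WT (called, adjusted p = 0.168, limma), a call lost without any one of the 8 arrays, and the difference was 0.48 ± 0.19 in BACHD hearts (not called, adjusted p = 0.202). Without BACHD aged 4 the BACHD difference was 0.65 and called, and without the 4 arrays with raised atrial markers the WT difference was 0.53 and not called. The WT call was also lost with an offset of 50 (0.57) and with median scaling. The dimmer probe showed larger differences, 0.96 ± 0.16 in WT (adjusted p = 0.00939) and 0.71 ± 0.16 in BACHD hearts (adjusted p = 0.0282), and both calls held without any array in turn. With no background correction these were 0.41 and 0.31, both called.

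Cx3cl1 (fractalkine), an endothelial ligand of Cx3cr1 on macrophages and monocytes, rose in WT hearts. It read 7.35, 7.36, 7.55 and 7.35 in WT young and 7.88, 8.20, 8.25 and 7.96 in WT aged hearts. BACHD young hearts read 7.37, 7.54, 7.54 and 7.45, and BACHD aged hearts 8.06, 7.62, 8.12 and 7.30. The aged BACHD arrays split, with arrays 1 and 3 in the range of the aged WT hearts and array 4 below every young array. The rise was 0.68 ± 0.15 log2 units in WT (adjusted p = 0.0492, limma), a call that held without any array in turn and was 0.44 with no background correction. In BACHD hearts the difference was 0.30 ± 0.15 (not called, adjusted p = 0.357, limma), and without BACHD aged 4 it was 0.46 and called. BACHD aged 4 had the raised platelet markers and was also among the 4 arrays with raised atrial markers. Without those 4 arrays the BACHD difference was 0.37 and not called. The Cx3cl1 interaction term was -0.38 ± 0.21 (not called).

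Most markers of stromal and endothelial cells were not called with age. Of 6 smooth muscle and pericyte markers, 1 was higher with age in WT hearts, Myh11 (0.82), the smooth muscle myosin, with a median of 0.25 over the list in WT and 0.13 in BACHD hearts. Their summed level was 5390 to 6969 in WT young, 5353 to 6829 in BACHD young, 6064 to 10315 in WT aged and 5160 to 8735 in BACHD aged hearts. The highest sum was on WT aged 2, which also gave the highest WT values of Cxcl12 and Cxcl14, and Tagln of that list was detected on no array. Of 8 fibroblast markers, none was called with age in WT hearts (median 0.03). In BACHD hearts (median -0.10) 2 collagen genes were lower, Col1a1 (-1.25) and Col1a2 (-0.82). The fibroblast sum was 13321 to 15067, 13183 to 14135, 13011 to 17922 and 12802 to 14649 in the same order of groups, again highest on WT aged 2. None of 7 endothelial markers was called in any comparison, and their median age difference was 0.00 in WT and -0.16 in BACHD hearts. The part of these cells in the ligand values was not tested.

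Cxcl9, Ccl9 and the dim probe of Ccl4 made up the called falls with age in BACHD hearts. Cxcl16 differed by -0.36 there and was not called, but every BACHD aged array (7.42 to 7.69) lay below every young one (7.85 to 8.04). Its difference was called when only the 8 BACHD arrays were fitted, and its WT ages overlapped. Cxcl9, an interferon-gamma induced ligand of Cxcr3 on activated T cells, read 8.45, 8.49, 8.67 and 8.90 in BACHD young and 7.50, 6.95, 7.98 and 6.40 in BACHD aged hearts. WT young hearts read 8.70, 8.43, 8.79 and 8.25, and WT aged hearts 8.14, 7.93, 7.80 and 6.81. Every aged array lay below every young array of its genotype. The difference was -1.42 ± 0.31 in BACHD hearts (adjusted p = 0.0215, limma), called without any array in turn and -0.93 with no background correction, and -0.87 ± 0.31 in WT hearts (not called, adjusted p = 0.261). With no background correction the WT difference was -0.59 and was called. The interaction was -0.55 ± 0.43, so the fall was not shown to differ between genotypes. Cxcl10 and Cxcl11, the other ligands of Cxcr3, were detected on no array.

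Promoters of Cxcl13 and Cxcl9, the CXC ligands with the largest rise and the largest fall, are shown for comparison. They lie on chromosome 5 of GRCm38.p6, Cxcl13 at chr5:95956689-95956988 on the plus strand and Cxcl9 at chr5:92328030-92328329 on the minus strand, and capitals mark the same 3 motifs.
Cxcl13: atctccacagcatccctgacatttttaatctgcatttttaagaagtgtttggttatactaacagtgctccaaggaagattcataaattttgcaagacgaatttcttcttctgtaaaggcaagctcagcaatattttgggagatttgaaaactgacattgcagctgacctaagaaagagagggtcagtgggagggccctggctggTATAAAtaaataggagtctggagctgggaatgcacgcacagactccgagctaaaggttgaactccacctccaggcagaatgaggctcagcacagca
Cxcl9: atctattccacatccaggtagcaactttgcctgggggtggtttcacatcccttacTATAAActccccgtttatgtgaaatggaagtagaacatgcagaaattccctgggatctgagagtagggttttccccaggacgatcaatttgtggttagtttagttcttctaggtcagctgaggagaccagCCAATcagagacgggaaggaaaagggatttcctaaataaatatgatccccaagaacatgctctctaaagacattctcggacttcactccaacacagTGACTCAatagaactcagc
Both held TATAAA once, beginning 46 bases before the start in Cxcl13 and 195 in Cxcl9. Only the Cxcl9 window also held the other motifs, CCAAT 65 bases before the start and TGANTCA after it, once each.

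Ccl9, a macrophage chemokine of mice that acts through Ccr1, was called lower with age in BACHD hearts only. Its genotype by age interaction was not called, so the fall was not shown to differ between genotypes. It read 8.79, 9.24, 9.09 and 9.07 in BACHD young and 7.88, 8.24, 8.52 and 8.79 in BACHD aged hearts. WT young hearts read 8.53, 9.38, 9.31 and 9.35, and WT aged hearts 8.39, 8.71, 8.76 and 8.78. BACHD young 1 and BACHD aged 4 met at 8.79, and WT young 1 lay among the aged arrays. Aged minus young, it was -0.69 ± 0.20 in BACHD (called, adjusted p = 0.0839, limma) and -0.48 ± 0.20 in WT hearts (not called, adjusted p = 0.373). The BACHD call was lost without any of 5 arrays in turn, BACHD young 2, 3 and 4 and BACHD aged 1 and 2, and the WT difference became -0.69 and was called without WT young 1. Without the 4 arrays with raised atrial markers the BACHD difference was -0.99 and called. Ccl9 lies beside Ccl6, another macrophage chemokine, which differed by -0.51 ± 0.23 in WT and -0.15 ± 0.23 in BACHD hearts and was not called.

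Some macrophage and monocyte markers were lower with age in BACHD hearts, as Cxcl9 and Ccl9 were. Of the 14 listed, 10 were measured and 8 were detected on 4 arrays or more. With age in BACHD hearts 4 were lower, Adgre1 (-0.80), C1qa (-0.46), C1qb (-0.59) and C1qc (-0.44), with a median of -0.45 over the list beside 0.00 over all probes. None was called with age in WT hearts, where the median was -0.20. The summed level of the list was 5384 to 8293 in WT young, 5573 to 7497 in BACHD young, 5806 to 6627 in WT aged and 4377 to 6301 in BACHD aged hearts. On BACHD aged 4 that sum was the highest of its group (6301). Of the ligands on that array, Cxcl9 was the lowest of its group (6.40) and Ccl9 the highest (8.79). Itgam was detected on no array. The part of these cells in the changes of Cxcl9 and Ccl9 was not tested.

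Ccl4, an inflammatory ligand that draws monocytes and T cells, was at the edge of detection, and its probes gave different answers. The brighter probe was detected on 2 WT young, 1 BACHD young, 1 WT aged and 0 BACHD aged arrays. It read 5.25, 5.33, 5.85 and 5.52 in WT aged and 4.78, 4.81, 5.03 and 4.77 in BACHD aged hearts, and the groups did not overlap. The difference between genotypes there was -0.64 ± 0.25 (not called, adjusted p = 0.740, limma), and it passed the threshold when only these 8 arrays were fitted. It shrank to -0.33 with an offset of 50, to -0.36 with the probes averaged and to -0.18 with no background correction or in the deposited processed values, none called. No bound on a fold could be given. The dimmer probe, detected on no array, was the only one of the 68 called between genotypes in young hearts, at 0.28 ± 0.08 (adjusted p = 0.969, limma), and it was also called with age in BACHD hearts (-0.29, and -0.31 but not called without the 4 arrays with raised atrial markers). It read 4.48, 4.44, 4.43 and 4.50 in WT young and 4.84, 4.96, 4.50 and 4.66 in BACHD young hearts, so its values were of background.

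Ccl2, Ccl3 and Ccl5, which act on monocytes and T cells, were singled out because the study also assayed their proteins in serum. Ccl2 and Ccl3 were detected on no array, and their normalized log2 levels ranged from 4.49 to 5.11 and from 4.41 to 5.08. Ccl5 was detected on 1 WT young, 0 BACHD young, 4 WT aged and 2 BACHD aged arrays. It read 5.41, 5.63, 5.27 and 5.54 in WT young, 5.79, 6.47, 5.87 and 5.62 in WT aged, 5.23, 5.42, 5.50 and 4.86 in BACHD young and 5.08, 5.98, 6.07 and 5.44 in BACHD aged hearts. The WT aged arrays were the highest as a group but overlapped the young ones at 5.62. Its age difference was 0.47 ± 0.22 in WT and 0.39 ± 0.22 in BACHD hearts, and its genotype difference was -0.21 in young (95% confidence interval -0.68 to 0.25) and -0.29 in aged hearts (-0.76 to 0.17). None was called.

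The comparison of genotypes asked whether BACHD hearts differed from WT hearts of the same age. In young hearts 1 of the 68 probes (1.47%) was called, the undetected Ccl4 probe, beside 0.483% of all probes. In aged hearts 0 were called, beside 0.895% of all probes, and 4 (5.88%) had a P below 0.05, beside 6.12% of all probes, so the number of passing probes was that of the array as a whole. None passed an adjusted p below 0.05 in limma at either age, and nor did any probe of the array. The median log2 difference over the 68 probes was -0.01 in young hearts and -0.07 in aged hearts, beside 0.00 for all probes in each. In aged hearts 48 of the 68 were lower in BACHD mice, beside 50.01% of all probes, and in young hearts 37 were, beside 48.9%. Among the 29 detected probes, 26 were lower in aged BACHD hearts with a median of -0.18, beside 49.4% and 0.00 for all detected probes. These probes share arrays, some share a gene, and detection was not independent of the groups, so the counts carry no test.

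**Figure D5:**
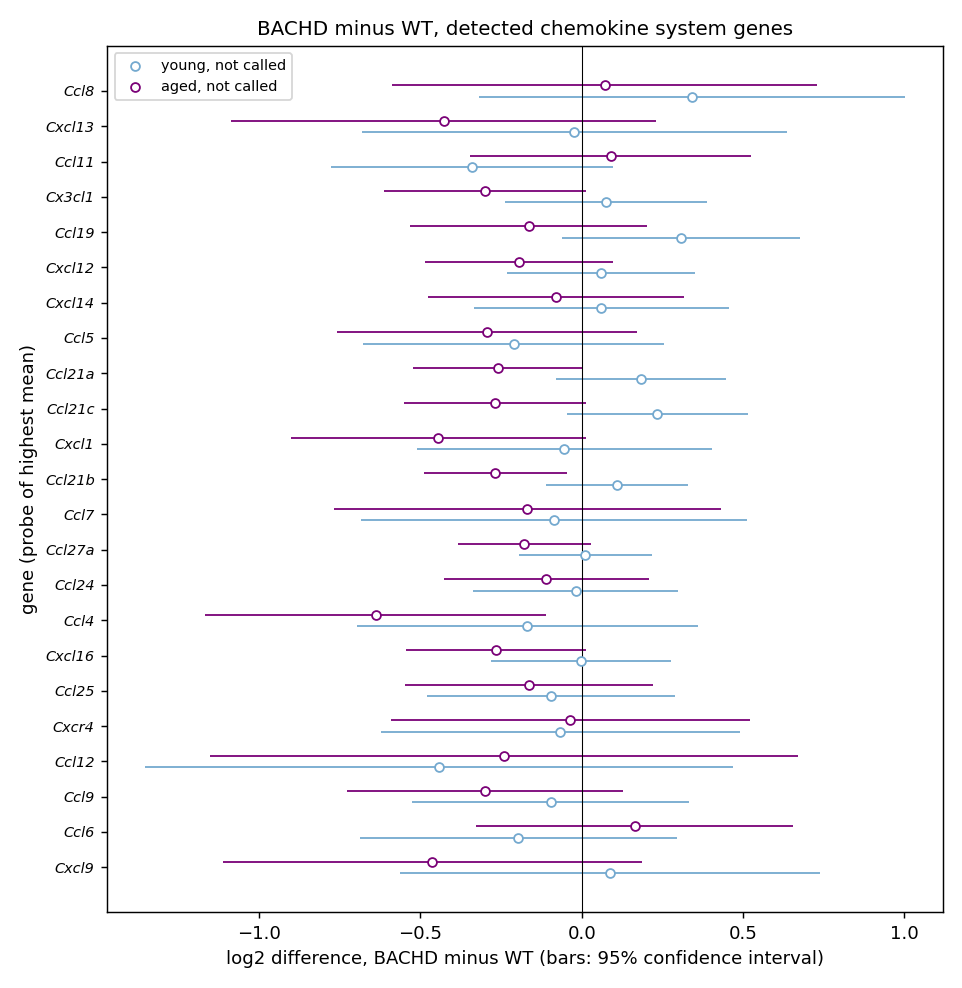
Log2 difference between BACHD and WT hearts (x axis; bars are 95% confidence intervals) for each gene with a probe detected on at least 4 arrays (y axis, in the order of the age plot), at the young and the aged time. No point is filled, since none passed P below 0.005, and Ccl4 lies farthest to the left in aged hearts, at -0.64.

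Among single genes in aged hearts, the differences that were largest beside Ccl4 were those of Cxcl9 (-0.46 ± 0.31), Cxcl1 (-0.44 ± 0.21) and Cxcl13 (-0.43 ± 0.31), none called. Without the 4 arrays with raised atrial markers these were -0.74, -0.83 and 0.04, so the Cxcl13 difference did not remain, and Ccl11 went from 0.09 to 0.61, again none called. Cxcl1, a neutrophil chemoattractant that acts through Cxcr2, read 7.01, 7.08, 7.54 and 6.44 in WT aged and 6.33, 6.56, 6.86 and 6.54 in BACHD aged hearts, with overlap at WT aged 4. Cxcl16, a ligand of Cxcr6 that is also a scavenger receptor, read 7.997, 8.20, 7.69 and 7.45 in WT aged and 7.68, 7.48, 7.69 and 7.42 in BACHD aged hearts, a difference of -0.27 ± 0.13 (not called, adjusted p = 0.849, limma). Without WT aged 4 the Cxcl16 difference was -0.40 and called. Neutrophil markers were highest on BACHD aged 4 and WT young 2, with summed levels of 2940 and 2030 beside 296 to 1281 on the other arrays. Of 9 listed, 8 were measured, of which 2 were detected on 4 arrays or more and 5 on no array. With age in BACHD hearts 1 was called, S100a8 (2.52), and the median over the list was 0.06. The part of neutrophils in the Cxcl1 values was not tested.

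The interaction asked whether the age difference depended on genotype. None of the 68 probes was called, beside 0.611% of all probes, and 6 (8.82%) had a P below 0.05, beside 6.19%. Of the 6, 3 were the Ccl21 genes, Ccl21a, Ccl21b and Ccl21c, lymphatic chemokines that draw T cells and dendritic cells through Ccr7. These are near-identical copies whose probes may share transcripts, so they are read as 1 measurement. The rest of the 6 were Ccr10 and a probe each of Ccl4 and Cxcl12, all detected on no array. Ccl21a read 9.61, 9.62, 9.67 and 9.47 in WT young and 10.21, 9.69, 10.20 and 9.80 in WT aged hearts. BACHD young hearts read 9.89, 9.75, 9.56 and 9.90, and BACHD aged hearts 9.64, 9.63, 9.97 and 9.62. WT aged hearts lay above WT young ones without overlap, whereas the BACHD ages overlapped.

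The age difference of Ccl21a was 0.38 ± 0.12 in WT (not called, adjusted p = 0.214, limma) and -0.06 ± 0.12 in BACHD hearts, with an interaction of -0.44 ± 0.17 (adjusted p = 0.783). With no background correction the WT difference of Ccl21a was 0.34 and called. For Ccl21b the interaction was -0.38 ± 0.15 and for Ccl21c -0.50 ± 0.19. The highest WT aged arrays, 1 and 3, were those without raised atrial markers, and the highest BACHD aged array, 3, was one with them. Without the 4 arrays with raised markers, which left 2 aged arrays per genotype, the interactions were -0.76, -0.57 and -0.88, and with them that of Ccl11 (0.95, or 0.28 and not called on its dimmer probe) passed the threshold. The WT age difference was then 0.62, 0.45 and 0.59 and the aged genotype difference -0.58, -0.46 and -0.64 for Ccl21a, Ccl21b and Ccl21c, all past the threshold. Lymphatic endothelial markers, a list of 5 that includes Ccl21a, were 2235 to 2380 in sum in WT young, 2314 to 2541 in BACHD young, 2427 to 2782 in WT aged and 2344 to 2737 in BACHD aged hearts. Prox1 of that list rose with age in BACHD hearts (0.28), and their part in the Ccl21 values was not tested.

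Cxcr4 and Ccl27a were not called in any comparison. Cxcr4 read 6.49, 5.52, 6.87 and 6.55 in WT young, 6.10, 6.77, 6.13 and 6.15 in BACHD young, 6.56, 5.86, 6.25 and 5.79 in WT aged and 6.34, 5.74, 6.34 and 5.89 in BACHD aged hearts. The groups overlapped throughout, and the age difference was -0.24 in WT (95% confidence interval -0.80 to 0.32) and -0.21 in BACHD hearts (-0.77 to 0.35), while that of its ligand Cxcl12 was called in WT. Ccl27a, a skin chemokine with near-identical gene copies, ranged from 8.57 to 9.05 over the 16 arrays and differed by -0.18 ± 0.10 between genotypes in aged hearts. Of the 29 members outside the rule for named genes, 3 had detected probes, Ccl7, Ccl24 and Ccl25. Over the 39 probes detected on no array, the log2 difference ranged from -0.18 to 0.48 with age in WT hearts and from -0.29 to 0.21 in BACHD hearts.

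Genes that act with the chemokines were mostly not called. Of 24 other genes of the chemokine system, 22 were measured and 13 were detected on 4 arrays or more. With age in BACHD hearts 1 was higher, Ccrl2 (0.66), a receptor-like protein that binds chemerin, and 1 was lower, Cd74 (-0.91), which is part of the Mif receptor and the invariant chain of class II antigen presentation. None of the 22 was called in the other 4 contrasts. The platelet chemokine Ppbp, outside the naming rule of the set, averaged 6.73 in WT aged and 8.31 in BACHD aged hearts. That difference was 1.58 (not called). Ppbp is itself on the list of platelet markers whose summed level was raised on BACHD aged 4. Of 20 cytokines and factors that induce chemokines, 18 were measured and none was called, and Tnf, Il6 and Ifng were detected on no array. Among 9 measured leukocyte adhesion molecules, Vcam1, which holds rolling leukocytes on endothelium, rose with age in WT hearts (0.47).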

How the data were processed

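Total RNA from the ventricles of 16 mice was hybridized to Illumina MouseRef-8 v2.0 arrays, 1 per mouse. The authors read the arrays out with BeadStudio, and their deposited intensity values per probe were neither background corrected nor normalized. They stand beside a deposited detection p-value against the negative controls of each array. They also deposited processed log2 values, which equalled quantile normalized log2 signals to within 5e-09, and these served as an alternative. No column of the tables was left without a sample.

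The signals were background corrected with neqc in limma 3.58.1 (R 4.3.3), that is, by normexp, with the level of the negative controls taken from the detection p-values, then an offset of 16, quantile normalization and log2. One linear model over 4 groups (lmFit, eBayes) gave 5 contrasts. Calls used the unadjusted P threshold of the methods, 0.005, with Benjamini-Hochberg values over all 25697 probes beside them. Of these, 23978 probes had a symbol in the platform annotation and 1719 had none. Symbols can be old. A probe counted as detected at a detection p below 0.01. The precision is limited by having 4 arrays a group. With 4 arrays against 4, an exact two-sided permutation test cannot go below 0.0286. "At least" folds set the mean of the brighter group against the lowest signal of detected probes on the arrays of the dimmer group. Summed marker levels add normalized values on the linear scale.

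A gene is described on the probe of highest mean. Genes were named if a probe was called in any contrast, if a probe was detected on all arrays, if among the 3 detected members of smallest P in a contrast, or if they were Ccl2, Ccl3, Ccl5, Ccr1, Ccr2, Cx3cl1, Cxcl12 or Cxcr4. One further gene of that rule is not reported here. The members and gene lists were chosen with earlier results of these data known. Replicate numbers were not treated as pairs. The code was tested on simulated data. Promoters and gene order come from RefSeq tables of GRCm38.p6.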

Additional observations from a re-analysis of the deposited data

Results flagged for a closer look

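In 10 of 80 groups of 4 arrays (20 genes), 1 array lay far from the other 3 by Dixon's test, where chance gives about 1 in 20. Arrays above the rest of their group, in normalized log2 expression, were Ccl19 on WT aged 2 (6.50, the others 6.14 to 6.19), Cxcl14 on WT aged 2 (9.05, the others 8.65 to 8.69), Cx3cl1 on WT young 3 (7.55, the others 7.35 to 7.36), Cxcr4 on BACHD young 2 (6.77, the others 6.10 to 6.15), Ccl4 on BACHD aged 3 (5.03, the others 4.77 to 4.81, none detected) and Ccl21a on BACHD aged 3 (9.97, the others 9.62 to 9.64). Arrays below the rest were Ccl9 on WT young 1 (8.53, the others 9.31 to 9.38), Ccl9 on WT aged 1 (8.39, the others 8.71 to 8.78), Ccl21b on BACHD young 3 (8.87, the others 9.07 to 9.10) and Ccl27a on BACHD young 2 (8.67, the others 8.99 to 9.04). WT aged 2 and BACHD aged 3, on which 4 of the 10 values lay, were among the arrays with raised atrial markers, and the part of those markers was not tested.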

How the results depend on the processing

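The number of the 68 probes called with age in WT hearts was 10 and lay between 8 and 12 under every alternative but averaging the probes of a gene, which gave 6. In BACHD hearts it was 8 and lay between 6 and 8, apart from 5 at an adjusted p below 0.05. Between genotypes in young hearts the 1 call became 0 with no background correction, an offset of 50, the deposited processed values, median scaling, a filter to probes detected on at least 4 arrays, a fit of only the 8 arrays, averaged probes, the replicate block and an adjusted p. In aged hearts the 0 calls became 1 when only the 8 arrays were fitted, and the interaction went from 0 to 1 with trended and robust variances. That interaction call was the Ccl4 probe detected on no array. Without the 4 aged arrays with raised atrial markers, an alternative added after seeing the data, the counts were 3 for genotype in aged hearts, 11 for age in WT, 7 for age in BACHD and 4 for the interaction, with 2 aged arrays per genotype. Leaving out each array in turn gave 0 to 1 for genotype in young hearts, 0 to 1 in aged hearts (1 without WT aged 4 or BACHD aged 3), 9 to 11 for age in WT, 5 to 8 for age in BACHD (5 without BACHD young 2) and 0 to 2 for the interaction (1 without BACHD young 3, 2 without BACHD aged 3). Without BACHD aged 3, the call in aged hearts and 1 of the 2 interaction calls were a Cxcl12 probe detected on no array. The interaction call without BACHD young 3 was the undetected Ccl4 probe. No difference of a named gene that passed the threshold turned its sign. Sizes depended on the background correction: of 19 called differences, 16 were smaller by over 1.5 times with none, and 18 were still called (16 with an offset of 50).

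The replicate numbers did not pair the arrays in every comparison (16 pairs, correlations -0.39 to 0.21, 3 above 0.1, 5 arrays nearest to their own number). These 3 and these 5 all came from the genotype comparison in aged hearts and the age comparison in BACHD hearts. With the replicate block the counts were 0, 0, 11, 7 and 0 for genotype young, genotype aged, age WT, age BACHD and the interaction. The chip as a block was not run, because the deposited headers name no chip. At a detection p below 0.05, 30 probes were detected on 4 arrays or more in place of 29. The 39 probes detected on no array give background values, and changes in them could not be measured.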
